A study of Rattus norvegicus with 14 samples.

Results

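Vascular mineralisation genes, those that promote or restrain the deposition of calcium phosphate in an artery wall, were examined in thoracic aortas of Sprague-Dawley rats. The arrays comprised 8 labelled A-CRF, from rats in which adenine had been used to bring about chronic renal failure, and 6 labelled Control. Adenine forms crystals in the kidney tubules and injures the kidney. The dose, the duration, the age and sex of the animals and the diet of the Control rats are not stated in the labels. Nor do they say whether samples came from different animals, so the p-values below reflect sample-to-sample spread that may be partly technical.

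The genes were chosen by name, as 10 genes known from uraemic calcification: the ligands Bmp2 and Bmp4, the transcription factors Runx2 and Sox9, the pyrophosphate and phosphate genes Alpl, Enpp1, Ankh and Slc20a1, and the secreted inhibitors Mgp and Tnfrsf11b. Of these, 8 had a probe set with a single gene symbol, out of 14217 genes named on the array. Runx2 and Sox9 were not analysed here. Ankh and Bmp2 had more than 1 probe set, and each gene is represented by whichever of its probe sets was brightest on average across the 14 arrays. All values are log2 probe set values, and changes are A-CRF minus Control.

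As background, mineral forms in the arterial media when smooth muscle cells take on features of bone or cartilage cells and when local inhibitors fail. Bone morphogenetic proteins drive the change of cell state through Smad proteins. Pyrophosphate outside the cell blocks the growth of hydroxyapatite, so the enzymes and transporters that make, release and destroy it set a local threshold for mineral. High phosphate in renal failure is a known driver of this process.

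Across the whole array, Benjamini-Hochberg adjusted p-values from limma fell under 0.05 for 636 of 31042 probe sets (2.05%), 1.26% higher and 0.789% lower in A-CRF. The smooth muscle markers had mean values of 9.70 to 10.11 on A-CRF arrays and 10.02 to 10.66 on Control arrays, and 1 of 6, the myosin heavy chain Myh11, fell. That call held in 4 of 14 fits leaving out 1 array (highest adjusted p = 0.093) and in 4 of 11 other fits. With probe sets of several transcripts left out, Myh11 changed by -0.24 ± 0.15 log2 units (SE, limma adjusted p = 0.53). The macrophage markers averaged 7.34 to 7.79 on A-CRF arrays and 6.96 to 7.14 on Control arrays, and 7 of 10 rose. In whole aorta, fewer cells of a type and less RNA per cell cannot be told apart. GAPDH 3' minus 5' differences, a sign of shortened transcripts, reached 1.90 on A-CRF 1, 1.63 on A-CRF 4 and 1.58 on Control 1 (log2 units), and stayed within 0.37 to 0.55 elsewhere. The labels name no batch.

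Of the 8 measured mineralisation genes, Bmp4 was higher in A-CRF and the other 7 did not pass the test. This was 1 of 8 genes against a background of 2.05% of probe sets, a count too small to describe the group. The background is also dimmer. The Control mean was more than 1 log2 unit over the lowest value for 7 of the 8 genes and 12707 of 31042 probe sets. The median change of the 8 was 0.06, against -0.0020 over all probe sets, and 5 of the 8 values were positive. The groups of arrays did not overlap for Bmp4 alone among the 8, as for 1.38% of all probe sets.

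**Figure D1:**
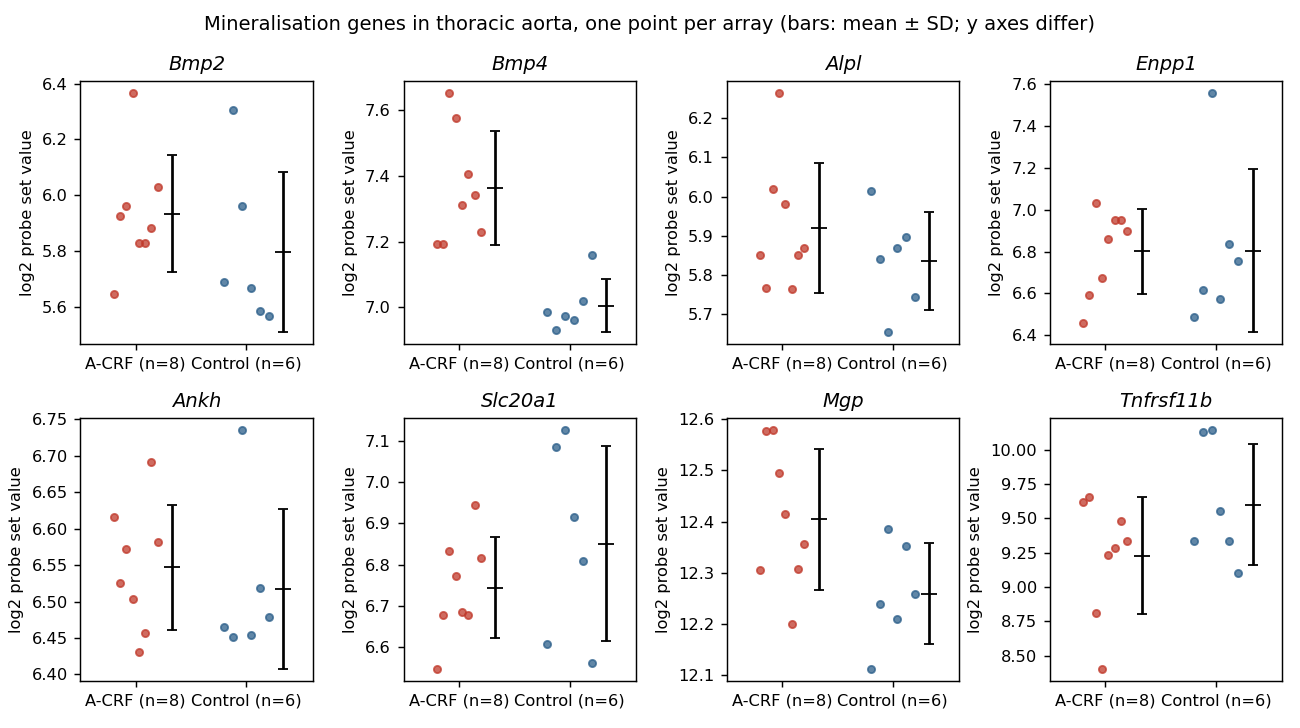
Log2 probe set values (vertical axes, which differ between panels) of each measured gene on the A-CRF arrays (left, red) and Control arrays (right, blue), 1 point per array, with mean and SD beside them. The Bmp4 values of A-CRF, 7.19 to 7.65, lie above those of Control, 6.93 to 7.16, and in the other panels the groups overlap.

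Bmp4, a secreted ligand of the BMP family that favours osteogenic differentiation, was higher on every A-CRF array than on any Control array. On A-CRF arrays 1 to 8 it read 7.19, 7.19, 7.65, 7.58, 7.31, 7.41, 7.34 and 7.23, and on Control arrays 1 to 6 it read 6.99, 6.93, 6.97, 6.96, 7.02 and 7.16. A-CRF 3 and A-CRF 4 were the high arrays, and A-CRF 1 and A-CRF 2 lay closest to Control 6, the highest Control array. The A-CRF mean was 7.36 ± 0.17 (SD, n = 8), and the Control mean 7.005 ± 0.081 (SD, n = 6). Bmp4 rose by 0.36 ± 0.07 log2 units (SE), a 1.28-fold difference, with an adjusted p of 0.023 in limma and a 95% interval of 0.20 to 0.51. A two-sided exact permutation test over the samples gave p = 0.00067, without adjustment for other genes. The change ranked 209 from the top among the 14217 named genes. The call ended without Control 2 (adjusted p = 0.051), Control 4 (0.053) or Control 5 (0.050, just over the threshold) and with a white adipocyte marker score as a covariate (0.054). The change was 0.32 to 0.39 in all 14 fits that left out 1 array and 0.37 with that score. None of 6 white adipocyte markers passed (median change -0.34), and their mean was 6.70 to 8.35 on A-CRF arrays and 7.71 to 8.41 on Control arrays.

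**Figure D2:**
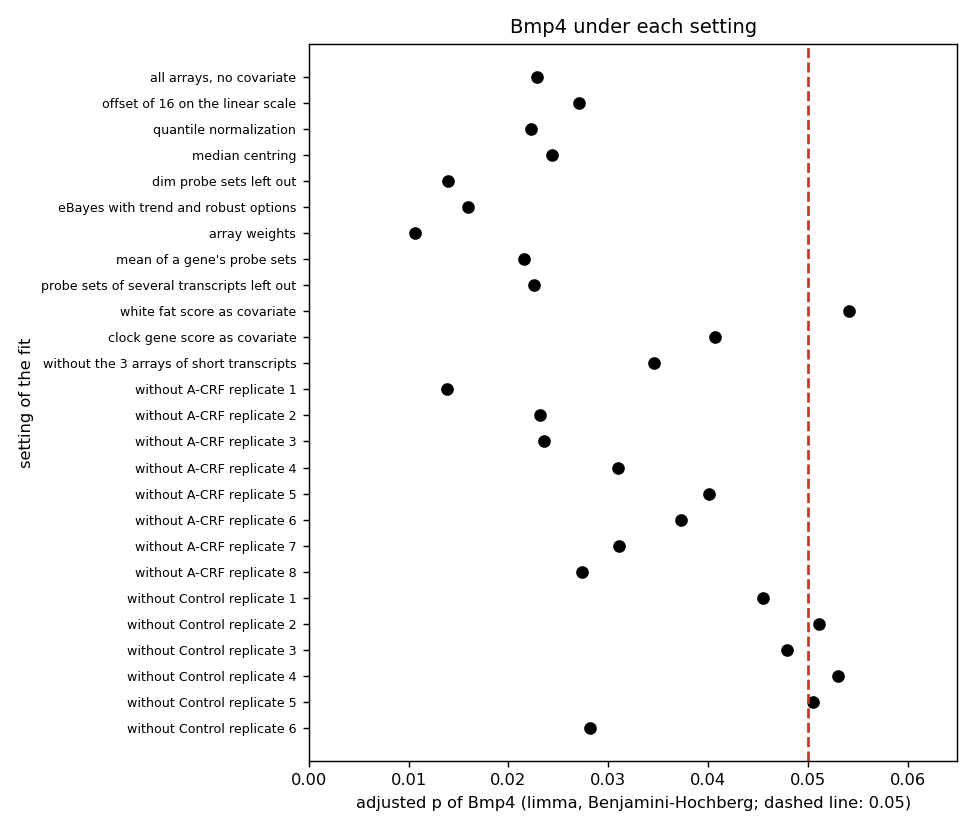
Adjusted p of Bmp4 (horizontal axis, limma with Benjamini-Hochberg adjustment) under each setting of the fit (vertical axis), 1 point per fit, with the threshold as a dashed line. Points lie between 0.011 and 0.054, and those past the line are the fits without Control 2, 4 or 5 and the fit with the white adipocyte score.

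The promoter of Bmp4 is shown because this was the measured gene that passed the test. RefSeq (GRCr8) gives the 250 bases before 1 annotated transcript start as chr15:22101934-22102183 on the minus strand. The gene spans 22098191 to 22113145, so this start lies inside the annotated gene and others are possible. The sequence runs 5' to 3' and ends at the base before the start. Capitals mark matches to the GC box, searched with the letters GGGCGG, and to the canonical E-box, searched as CACGTG.
Bmp4 promoter: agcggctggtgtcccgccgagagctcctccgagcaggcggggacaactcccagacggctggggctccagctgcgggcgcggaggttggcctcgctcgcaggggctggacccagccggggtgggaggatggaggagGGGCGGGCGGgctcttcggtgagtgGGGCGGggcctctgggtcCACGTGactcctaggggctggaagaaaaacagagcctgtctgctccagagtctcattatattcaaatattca

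The GC box letters occurred at 115, 111 and 90 bases before the start, the first pair overlapping, and the E-box letters at 72 bases. Both strands were searched. The GC box was present in 30.5% and the E-box in 5.59% of 33469 promoter windows of the same length. The TATA box, searched with the letters TATAAA, was not in this window and was in 12.9% of all windows. The letters CCAAT, another common promoter element, were also not found here, against 34.0% of all windows. A GC-rich element bound by Smads, written GGCGCC, had no match here either, against 8.70% of windows. The Bmp4 window was 66.4% G or C, against a median of 51.2%. A match is a description of letters and not a binding site. Windows for Alpl and Ankh were also in the table, and none for the other measured genes.

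The named genes whose values followed Bmp4 most closely over the 14 arrays were Cd300a (Pearson r = 0.95), an inhibitory receptor of leukocytes, Tlr2 (r = 0.95), a pattern recognition receptor, and Htra2 (r = 0.94), a mitochondrial protease. These coefficients describe 14 arrays that also differ by group, and carry no test. Cd300a averaged 6.09 ± 0.08 in A-CRF and 5.93 ± 0.04 in Control (SD, n = 8 and 6), and Tlr2 5.62 ± 0.07 in A-CRF and 5.42 ± 0.02 in Control. Htra2 averaged 6.57 ± 0.11 in A-CRF and 6.29 ± 0.07 in Control. The Control mean of Tlr2 lay less than 1 log2 unit over the lowest value of any probe set, 4.82. The macrophage marker mean was highest on A-CRF 3 (7.79) and A-CRF 4 (7.67), which were also the arrays of highest Bmp4. Its part in the Bmp4 difference was not tested.

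Bmp2, the other ligand, did not pass. It ranged from 5.65 to 6.37 on A-CRF arrays (median 5.90) and from 5.57 to 6.30 on Control arrays (median 5.68). A-CRF 4 and Control 2 were the high arrays of their groups, and the groups overlapped across nearly their whole range. The change was 0.14 ± 0.12 log2 units (SE, limma adjusted p = 0.72), with a 95% interval of -0.13 to 0.40. The second probe set gave 0.12 ± 0.13, with all 8 A-CRF arrays above its Control median. Across 14 fits leaving out 1 array, the brighter probe set gave 0.08 to 0.24 and never passed. The Control mean of 5.80 lay less than 1 log2 unit over the lowest value of any probe set, 4.82, where any offset in the deposited values would shrink differences.

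Alpl, Enpp1 and Ankh set the level of extracellular pyrophosphate. Alpl encodes the tissue-nonspecific alkaline phosphatase, which splits pyrophosphate. It read 5.76 to 6.26 on A-CRF arrays (median 5.86) and 5.65 to 6.01 on Control arrays (median 5.86). A-CRF 4 was the high array, and the medians were equal to 2 decimals. The change was 0.08 ± 0.08 (SE, adjusted p = 0.72), with a 95% interval of -0.08 to 0.25. The Control mean of 5.84 lay 1.02 log2 units over the lowest value, little further than that of Bmp2 (0.98). Low signal therefore limits Alpl too. Its only probe set was absent from the fit without probe sets of several transcripts.

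Enpp1, which makes pyrophosphate from ATP, ranged from 6.46 to 7.03 on A-CRF arrays (median 6.88) and from 6.49 to 7.56 on Control arrays (median 6.69). Control 3 alone exceeded every A-CRF array, and the other Control arrays lay at or below 6.84. The change was -0.0021 ± 0.15 (SE, adjusted p = 0.998), with a 95% interval of -0.32 to 0.32. Without Control 3 it was 0.15 ± 0.10 (adjusted p = 0.61).

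Ankh, a membrane protein needed for the release of ATP and pyrophosphate, ranged from 6.43 to 6.69 on A-CRF arrays (median 6.55) and from 6.45 to 6.74 on Control arrays (median 6.47). Control 3 was again the highest array. The change was 0.03 ± 0.05 (SE, adjusted p = 0.89), with a 95% interval of -0.08 to 0.14. The second probe set read the other way, at -0.04 ± 0.04, and also failed the test.

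Slc20a1 encodes the sodium-dependent phosphate transporter Pit-1, which brings phosphate into smooth muscle cells. It ranged from 6.55 to 6.94 on A-CRF arrays (median 6.73) and from 6.56 to 7.13 on Control arrays (median 6.86). Control 2 and Control 3 lay above all A-CRF arrays, and 7 of 8 A-CRF arrays lay below the Control median. The change was -0.11 ± 0.09 (SE, adjusted p = 0.70), with a 95% interval of -0.30 to 0.09. Slc20a2, of the phosphate handling list below, read the other way, at 0.20 ± 0.06 (SE, adjusted p = 0.12), and did not pass either.

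**Figure D3:**
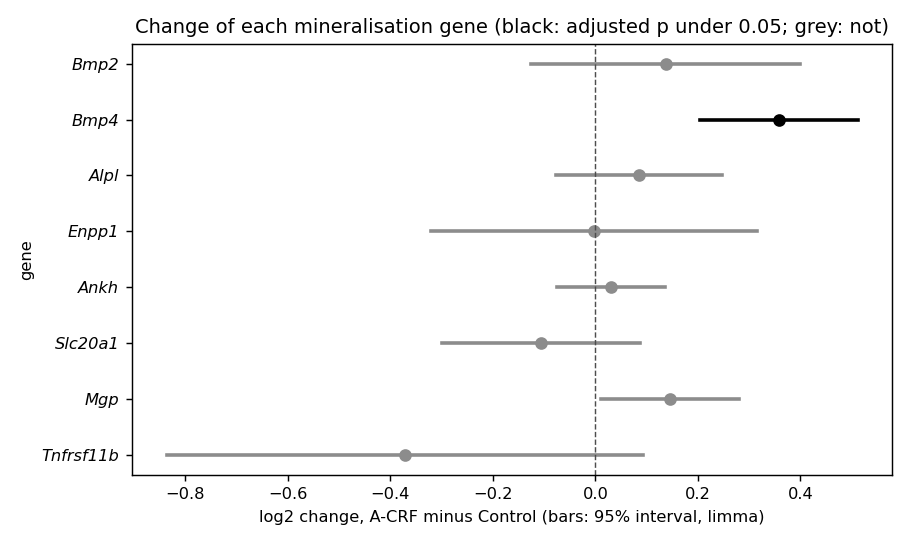
Log2 change, A-CRF minus Control (horizontal axis), of each measured mineralisation gene (vertical axis), with its 95% interval from limma. The interval of Bmp4, 0.20 to 0.51, lies above 0 and is drawn in black as past the adjusted threshold, that of Mgp, 0.01 to 0.28, also lies above 0 but is not past it, and that of Tnfrsf11b is the widest, -0.84 to 0.09.

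Mgp encodes matrix Gla protein, an inhibitor of arterial mineral that needs vitamin K dependent carboxylation. Its values, 12.20 to 12.58 on A-CRF arrays (median 12.39) and 12.11 to 12.38 on Control arrays (median 12.25), lay close to the highest value in the table, 12.64. On 7 of 8 A-CRF arrays Mgp was above the Control median, with A-CRF 2, 3, 4 and 5 above every Control array and A-CRF 6 below that median. The change was 0.15 ± 0.06 (SE), with an unadjusted p of 0.035 but an adjusted p of 0.29 in limma, and so did not pass. The 95% interval without adjustment was 0.01 to 0.28, and the exact permutation test gave p = 0.052. Across the alternatives the change ran from 0.08 ± 0.07 with quantile normalization (SE, limma adjusted p = 0.68) to 0.17 on leaving out 1 array.

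Tnfrsf11b encodes osteoprotegerin, a decoy receptor for the bone-resorption signal RANKL that protects arteries from calcification in mice. Its values were 9.62, 9.66, 8.81, 8.40, 9.23, 9.28, 9.48 and 9.34 on A-CRF arrays 1 to 8, and 9.34, 10.13, 10.15, 9.55, 9.33 and 9.10 on Control arrays 1 to 6. A-CRF 3 and A-CRF 4 were low and Control 2 and Control 3 were high, while all other arrays of both groups lay between 9.10 and 9.66. The A-CRF mean was 9.23 ± 0.43 (SD, n = 8), and the Control mean 9.60 ± 0.44 (SD, n = 6). The difference of -0.37 ± 0.22 (SE) was as large as that of Bmp4 in size, but the spread within each group was larger and the adjusted p was 0.49. The exact permutation test gave p = 0.14.

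A-CRF 4, one of the arrays with shortened transcripts, had the highest Bmp2 and Alpl and the lowest Tnfrsf11b of the 14 arrays. Relative to the Control means it stood at 0.57 for Bmp2, 0.57 for Bmp4, 0.43 for Alpl and -1.20 for Tnfrsf11b. A-CRF 3, whose GAPDH difference of 0.46 was in the range of the other arrays, stood at 0.65 for Bmp4 and -0.79 for Tnfrsf11b. Without the 3 arrays of short transcripts Bmp4 still passed, at 0.35 ± 0.07 (adjusted p = 0.035).

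**Figure D4:**
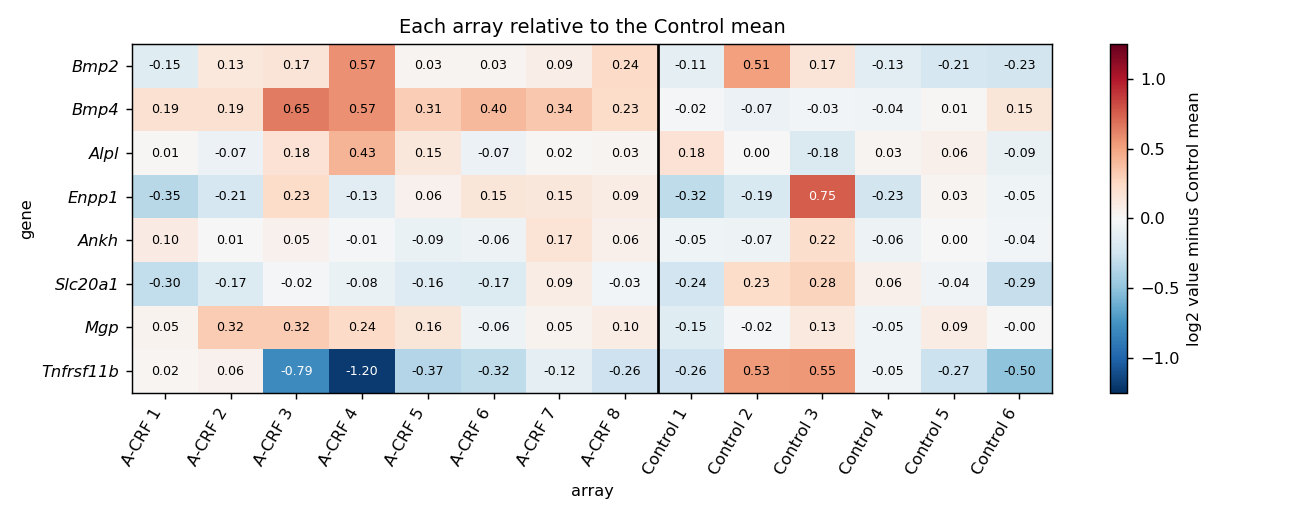
Log2 value of each gene (rows) on each array (columns, A-CRF left of the line and Control right of it) minus the Control mean of that gene, printed in each cell and coloured from blue (lower) to red (higher). Bmp4 is positive on all A-CRF arrays, and Tnfrsf11b reaches -1.20 on A-CRF 4 and -0.79 on A-CRF 3.

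Other genes of the mineralisation pathways were read from 7 lists. Of 60 listed genes 55 were measured, 3 rose, none fell and 52 did not pass, with a median change of 0.02. Those that rose were Sparc, Nt5e and Fgfr1, from separate lists. Beside the background of 2.05% of probe sets, 3 of 55 is a small count, and nothing particular to these lists is read from it. Here too the background is dimmer, as 36 of the 55 had a Control mean more than 1 log2 unit over the lowest value.

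Among bone matrix proteins 1 of 9 rose and the list median was 0.31, with 7 changes positive and 2 negative. The type I collagen genes, named after their values were seen, did not pass. Col1a1 had the largest positive change, 0.67 ± 0.22, and Col1a2, at 0.31 ± 0.10, gave the list median (SE, limma adjusted p = 0.14 for each). Sparc, the collagen-binding protein osteonectin, had 12.17 to 12.56 on A-CRF arrays (median 12.35) and 11.38 to 12.06 on Control arrays (median 11.93), so the groups did not overlap. It rose by 0.52 ± 0.10 log2 units (SE, limma adjusted p = 0.020) and passed in all 14 fits without 1 array, but not with the white adipocyte score (0.061). A further pair, also chosen after its values were seen, did not pass. Spp1, osteopontin, an inhibitor of crystal growth also made by macrophages, averaged 11.15 ± 0.44 over the 8 A-CRF arrays and 10.66 ± 0.14 over the 6 Control arrays (SD), with A-CRF 3 highest at 12.10 (change 0.49 ± 0.18, adjusted p = 0.18). Omd, osteomodulin, a keratan sulphate proteoglycan of bone, averaged 9.28 ± 0.67 in A-CRF and 10.25 ± 0.26 in Control (change -0.98 ± 0.27, adjusted p = 0.079). Omd was 9.76 to 10.15 on A-CRF 6, 7 and 8, inside or near the Control range of 9.93 to 10.62, and at most 9.30 on the remaining arrays of that group.

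In phosphate and pyrophosphate handling 1 of 8 genes rose. Nt5e, the ecto-nucleotidase CD73 that makes adenosine from AMP and whose loss causes arterial calcification in humans, had 6.15 to 6.69 on A-CRF arrays (median 6.46) and 5.90 to 6.18 on Control arrays (median 5.99). A-CRF 1 was the one A-CRF array inside the Control range. Nt5e rose by 0.39 ± 0.09 (SE, adjusted p = 0.038), a call that held in 4 of 14 fits without 1 array and ended without any of A-CRF 2, 3, 4, 7 and 8 or any Control array except Control 2 (highest adjusted p = 0.091). It also ended with the white adipocyte score (0.11).

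Of 5 measured receptors and ligands of mineral hormones 1 rose. Only 2 of the 5 had a Control mean more than 1 log2 unit over the lowest value. Kl, which encodes Klotho, averaged 5.07 in A-CRF and 5.08 in Control, close to the lowest value. Fgfr1, a receptor through which Fgf23 acts together with Klotho, had 9.14 to 9.57 on A-CRF arrays (median 9.21) and 8.71 to 9.07 on Control arrays (median 8.96). The groups did not overlap, and A-CRF 4 was highest. Fgfr1 rose by 0.34 ± 0.07 (SE, adjusted p = 0.029) and passed in 8 of 14 fits without 1 array. The call ended on leaving out A-CRF 2 or 5, or Control 2, 3, 5 or 6 (highest adjusted p = 0.074), with the white adipocyte score (0.055) and with a clock gene score as a covariate (0.051).

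**Figure D5:**
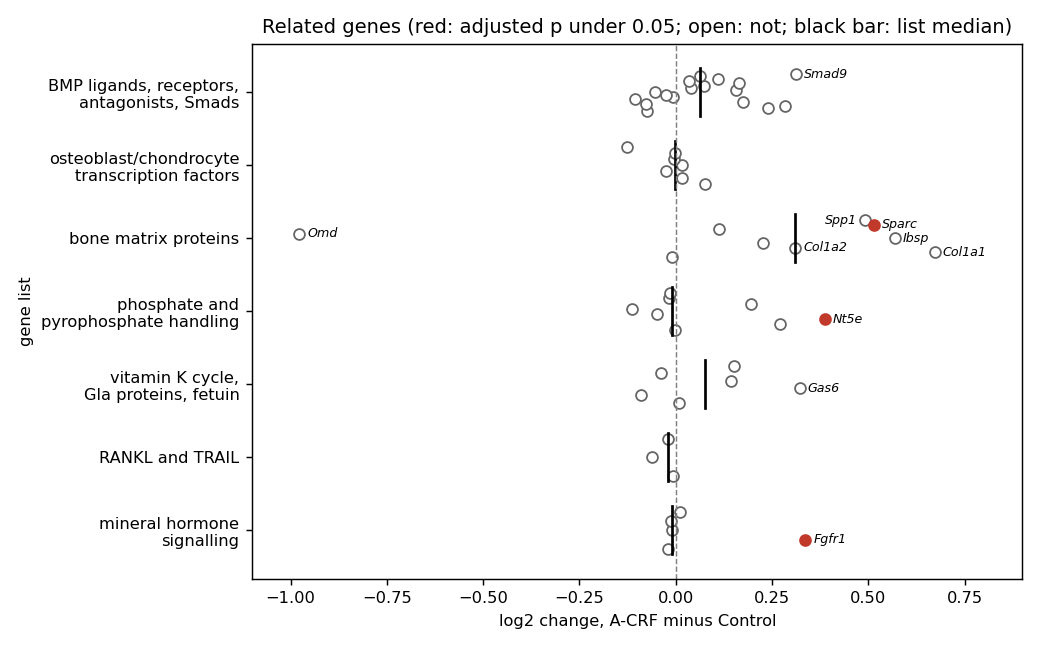
Log2 change, A-CRF minus Control (horizontal axis), of the 55 measured related genes by list (vertical axis), 1 point per gene, with list medians as black bars and genes that passed in red. The bone matrix list has the highest median, 0.31, and spans -0.98 for Omd to 0.67 for Col1a1.

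None of 17 measured BMP ligands, receptors, antagonists and Smads passed, with a median of 0.06. The largest changes were 0.31 ± 0.19 for Smad9, a BMP-activated Smad, and 0.28 ± 0.14 for the ligand Bmp6 (SE, adjusted p = 0.51 and 0.39). Averaging probe sets within a gene gave smaller changes, 0.15 ± 0.10 for Smad9 and 0.10 ± 0.06 for Bmp6. The smallest adjusted p of this list was that of Bmper, 0.060 in limma, for a change of 0.17 ± 0.04 (SE). Its Control mean, 5.62, lay less than 1 log2 unit over the lowest value. Over the list 11 changes were positive and 6 negative. Of 7 osteoblast and chondrocyte transcription factors none passed (median -0.0026), with Twist1 at -0.13 ± 0.06 and Atf4 at 0.08 ± 0.11. In the list of the vitamin K cycle, Gla proteins and fetuin none of 6 passed (median 0.08). There Gas6, a vitamin K dependent ligand of the receptor Axl, changed by 0.32 ± 0.09 (adjusted p = 0.098), and Vkorc1, which recycles vitamin K, by 0.15 ± 0.05 (adjusted p = 0.16). Neither passed. None of 3 genes of RANKL, its receptor and TRAIL passed (median -0.02). Tnfsf11, which encodes RANKL, averaged 5.11 ± 0.02 over A-CRF arrays and 5.13 ± 0.02 over Control arrays (SD), close to the lowest value in the table, and Tnfsf10, which encodes TRAIL, changed by -0.06 ± 0.08 (SE).

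Markers of bone and cartilage cells were set beside these genes. The 4 measured osteoblast markers are also in the bone matrix list above, so those sets overlap. None of 8 chondrocyte markers passed (median -0.02), and their mean was 5.48 to 5.57 on A-CRF arrays and 5.49 to 5.61 on Control arrays. Their changes ran from -0.08 to 0.06, and the cartilage collagen gene Col2a1 averaged 5.36 in A-CRF and 5.37 in Control. Only 2 of the 8 had a Control mean more than 1 log2 unit over the lowest value, and Col2a1 was not among them. For the rest, low signal limits what an absence of change can show. Of 4 osteoblast markers none passed (median 0.17), with a mean of 6.08 to 6.45 on A-CRF arrays and 5.90 to 6.11 on Control arrays. Of these, 3 had positive values and 1 a negative one. Ibsp, which encodes bone sialoprotein, averaged 6.75 ± 0.45 in A-CRF and 6.18 ± 0.17 in Control (SD), a change of 0.57 ± 0.18 (SE, unadjusted p = 0.0074, adjusted p = 0.13). All 8 A-CRF arrays lay above the Control median, but the groups overlapped. A-CRF 1, 6, 7 and 8 lay at 6.38 to 6.48, below Control 2 (6.50), while A-CRF 3 (7.60) and A-CRF 4 (7.23) were the high arrays. Dmp1, a phosphoprotein of bone and dentin matrix, changed by 0.23 ± 0.10 (unadjusted p = 0.048, adjusted p = 0.34), and Phex, an endopeptidase of osteoblasts and osteocytes, by 0.11 ± 0.04 (unadjusted p = 0.018, adjusted p = 0.20), all in limma. Bglap, which encodes osteocalcin, averaged 5.05 in A-CRF and 5.06 in Control (change -0.01 ± 0.01, adjusted p = 0.84). The Control means of Bglap and Phex lay less than 1 log2 unit over the lowest value.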

How the data were processed

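Total RNA of thoracic aorta was labelled from an oligo-dT primer and hybridised to 1-colour Affymetrix arrays, per the labels' protocols. The authors deposited a single value for every probe set on every array, used here as log2. The base was inferred from the range, 4.82 to 12.64, and the log2 changes hold only if it is right. The submitters' processing notes name PLIER, without a version. How arrays were normalized, and whether an offset was added, is not given in the sources used here.

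From 31099 probe sets, 57 control probe sets were left out and 31042 were tested. Only the 20826 with 1 symbol in the platform annotation were named (14217 genes). A-CRF was compared with Control by lmFit and eBayes of limma 3.58.1 (R 4.3.3) on all arrays, two-sided, with Benjamini-Hochberg adjustment over all tested probe sets and a threshold of 0.05. The fit had 12 residual degrees of freedom. The script was tested on simulated data. For arrays, the number of samples limits precision.

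The genes, lists, markers, tests and alternatives were chosen with earlier results of these data known. All 10 genes were named. From each related list the genes past the threshold were named, or up to 2 of largest change where none passed, and for Bmp4 the 3 genes of highest correlation. Spp1, Omd, Col1a1, Col1a2, Kl, Bmper, Slc20a2, Myh11, Col2a1 and the 4 measured osteoblast markers were named after their values were seen. The alternatives were an offset of 16, array weights, trend and robust options, quantile normalization, centring on medians, a filter at the 40th percentile of mean signal, averaging probe sets within a gene, dropping probe sets of several transcripts, marker scores as covariates, an exact permutation test, and leaving out arrays.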

Additional observations from a re-analysis of the deposited data

Results flagged for a closer look

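Enpp1 on Control 3 (7.56) stood apart from the other Control arrays, which lay at 6.49 to 6.84. Ankh on Control 3 (6.74) did so too, against 6.45 to 6.52 on the others. These were the 2 outlying values among 16 sets of arrays tested with Dixon's 95% limit, where chance gives about 1 in 20.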

How the results depend on the processing

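The count of probe sets past the threshold, 636, was 1457 with array weights, 270 with the white adipocyte score and 307 to 979 when 1 array was left out. Of the mineralisation genes 1 passed. With the white adipocyte score 0 passed, and 0 to 1 when 1 array was left out. Of the related genes 3 passed, 7 with array weights, 1 with the white adipocyte score and 1 to 4 when 1 array was left out. The cause was not tested. Bmp4 kept its direction in all 26 alternatives. It passed in 11 of 14 fits without 1 array and in 10 of the 11 other fits with an adjusted p. None of the other 7 genes passed in any alternative with an adjusted p. The sign of Enpp1 matched in 17 and that of Ankh in 24 of 26 alternatives. No paired analysis was possible because the labels give no numbers shared between A-CRF and Control. Signal limits Bmp2 and Alpl. The Control mean of Bmp2 was within 1 log2 unit of the lowest value, and that of Alpl lay 1.02 over it.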
